A study of Bos taurus with 16 samples.

Results

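The addition of BMP6 to LH-treated bovine theca cells was followed on 8 of the 16 Affymetrix bovine genome arrays of the series. They were chosen by treatment label and comprise the 4 LH+BMP6 arrays and the 4 LH arrays. LH+BMP6 cells received 10 ng/ml BMP6 and 160 pg/ml LH, and LH cells received the same dose of LH without BMP6. The other 8 arrays, 4 from cells given 10 ng/ml BMP6 alone and 4 from untreated control cells, were used to ask whether LH altered the response to BMP6. In all 4 groups, theca interna cells of adult cattle were grown for 6 days without serum, and treatments were present from day 3 to day 6. The ovaries came from a slaughterhouse, and each culture pooled cells of many follicles 4 to 6 mm across. The 4 replicates of a group were separate experiments on different batches of ovaries, so no value belongs to a single animal. No genetic change was made to any of the cells.

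Theca interna cells form the steroid-making layer around the ovarian follicle. Under LH, which acts through a G protein-coupled receptor and cyclic AMP, they turn cholesterol into androgen, which granulosa cells convert to oestrogen. They also secrete the peptide hormone INSL3. BMP6 is a secreted ligand of the TGF-beta superfamily that binds pairs of type I and type II receptor kinases. The activated receptors phosphorylate SMAD1, SMAD5 and SMAD8, which enter the nucleus with SMAD4 and switch on target genes such as the ID family.

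Signals are RMA log2 values, so a difference of 1 is a doubling, and a gene is represented by its brightest probe set. Pearson's r between arrays of a group, across probe sets, was 0.991 to 0.996 in LH+BMP6 cells and in LH cells. LH replicate 1 stood apart. Its mean signal from the spiked hybridisation controls was 8.71, while the 4 LH+BMP6 arrays had 9.84 to 10.16 and the other LH arrays 9.96 to 10.08. On the leading principal component, which carried 54.2% of the variance, the LH+BMP6 arrays lay between 23.3 and 32.5. LH replicate 1 lay at -43.8 and the other LH arrays between -24.4 and -22.0. The signal of actin 3' probes minus 5' probes, a measure of RNA integrity, was 1.72 ± 0.28 in LH+BMP6 cells and 2.10 ± 0.16 in LH cells (SD, n = 4 each; exact permutation test, two-sided p = 0.0571, adjusted p = 0.0857 over 3 tests). The same measure for GAPDH was 0.14 ± 0.02 in LH+BMP6 cells and 0.27 ± 0.11 in LH cells (SD, n = 4 each; exact p = 0.0571, adjusted p = 0.0857). The part of these differences in the results was not tested. The smallest p that 4 against 4 arrays allow is 0.0286.

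Among 24016 probe sets, limma called 4879 (20.3%) at a Benjamini-Hochberg adjusted p under 0.05. Of these, 2399 (9.99%) were higher in LH+BMP6 cells and 2480 (10.3%) were lower. Counted by gene, 2492 of 9155 (27.2%) were called, 1074 higher (11.7%) and 1418 lower (15.5%). The signals of LH+BMP6 and LH arrays did not overlap for 2556 genes (27.9%). Changes of at least 2-fold were found for 183 called genes that rose (2.0%) and 145 that fell (1.58%), and changes of at least 4-fold for 16 that rose (0.175%) and 26 that fell (0.284%). Over all genes the median difference was -0.032, and the median SE of a difference over probe sets was 0.102. The counts that follow for groups of genes are to be read against these shares. The groups were chosen with earlier results of these data known, so a count above these shares is a description and not a test.

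Most direct targets of BMP signalling rose. Of 7 measured BMP-SMAD target genes, 5 were higher in LH+BMP6 cells and none was lower, with a median difference of 1.66. ID1, an inhibitor of basic helix-loop-helix transcription factors, had log2 signals of 11.32, 10.62, 11.03 and 11.26 in LH+BMP6 cells, against 7.73, 8.27, 8.56 and 8.38 in LH cells. The groups were far apart and the lowest array was LH replicate 1. The difference was 2.82 ± 0.20 (SE; limma adjusted p = 1.09e-07), a 7.06-fold rise, and averaging both probe sets of ID1 gave 1.42. Its relatives ID3 (1.85 ± 0.18, adjusted p = 3.88e-06) and ID2 (1.66 ± 0.18, adjusted p = 8.49e-06) rose as well. So did BAMBI, a decoy receptor that dampens BMP and TGF-beta signals (1.34 ± 0.13, adjusted p = 2.72e-06), and TMEM100, a BMP-induced membrane protein (1.72 ± 0.29, adjusted p = 0.000441). With its probe sets averaged TMEM100 was higher by 0.84. HEY1 and MSX1, transcription factors also listed as BMP targets, were not called, with differences of -0.04 and -0.01.

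**Figure D1:**
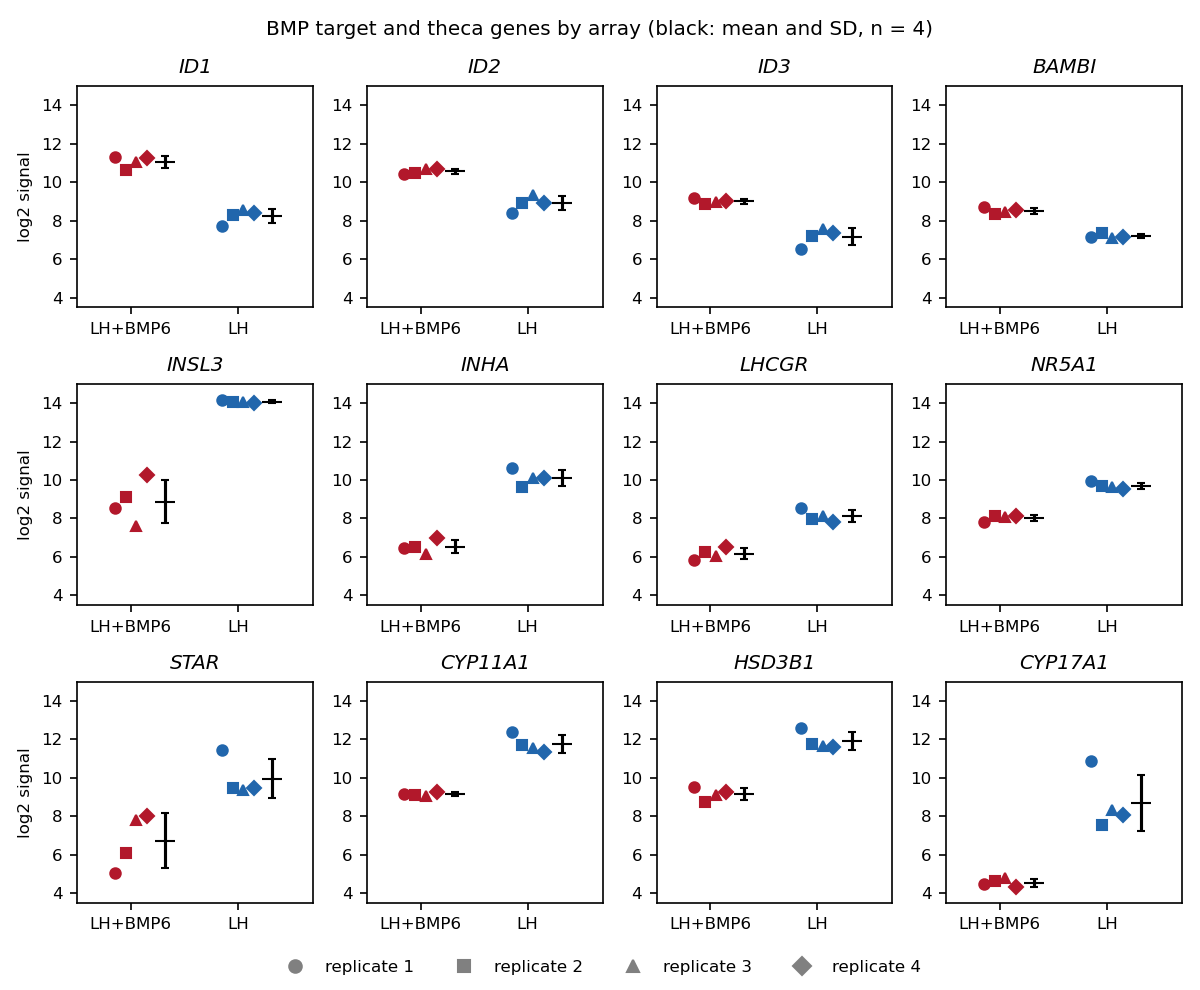
Log2 signal of 12 genes on each array, LH+BMP6 on the left and LH on the right of each panel. Symbols mark the replicate number, and the black bar with whiskers is the mean and SD of 4 arrays. ID1, ID2, ID3 and BAMBI are higher and the 8 theca genes lower on every LH+BMP6 array, and STAR spreads most, from 5.03 to 8.01, among LH+BMP6 arrays.

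Receptors and SMADs of the BMP and activin pathways were examined next, beside 27.2% of all genes called. Of 14 receptors and SMADs, 2 rose and 1 fell, and the median was 0.04. ENG, a co-receptor for BMP and TGF-beta ligands, differed by 0.62 ± 0.16 (limma adjusted p = 0.00902), and SMAD2, which carries activin and TGF-beta signals, by 0.36 ± 0.08 (adjusted p = 0.00449). The type I receptor BMPR1B was lower by -0.48 ± 0.11 (adjusted p = 0.00435). Each of these calls was lost when 1 replicate number was left out of all groups. ENG had an adjusted p of 0.11 without replicate 1, while SMAD2 had 0.0523 and BMPR1B 0.0552 without replicate 3. The type I receptor BMPR1A (0.03 ± 0.17, adjusted p = 0.93), the type I receptor ACVR1 (0.20 ± 0.07, adjusted p = 0.0617) and the type II receptor BMPR2 (0.33 ± 0.13, adjusted p = 0.0927) were not called. ACVR1 was called without LH replicate 1 (adjusted p = 0.0352), and BMPR2 without LH replicate 4 (adjusted p = 0.0438) and with probe sets averaged (0.44, adjusted p = 0.00219). No probe set of the annotation carries the name SMAD1.

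Among 13 ligands, 1 rose and 1 fell, with a median of -0.01. INHA, the alpha subunit that turns activin into inhibin, had 6.44, 6.54, 6.17 and 6.97 in LH+BMP6 cells, against 10.61, 9.63, 10.09 and 10.10 in LH cells. No array of either group came within 2 log2 units of the other group. INHA fell by 3.58 on the log2 scale (SE 0.24, limma adjusted p = 7.15e-08), or 11.9-fold. INHBA, the beta A subunit shared by activin and inhibin, was higher by 0.45 ± 0.15 (adjusted p = 0.0347) with overlapping groups. Its call was lost without LH+BMP6 replicate 1, 2 or 4 or LH replicate 2 or 3, with adjusted p values of 0.0694 to 0.111.

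Of 8 measured antagonists and binding proteins of the superfamily, 4 rose and none fell, with a median of 0.49. LTBP1, which anchors latent TGF-beta in the matrix, was higher by 1.68 ± 0.27 (limma adjusted p = 0.000288). The proteoglycan DCN, which binds TGF-beta, was higher by 0.74 ± 0.16 (adjusted p = 0.00265). The activin-binding protein FST differed by 0.68 ± 0.22 (adjusted p = 0.0353) and the BMP antagonist SOSTDC1 by 0.81 ± 0.24 (adjusted p = 0.0258). FST lost its call without LH+BMP6 replicate 1, 2 or 3 or LH replicate 1, 3 or 4 (adjusted p 0.0602 to 0.125). SOSTDC1 lost it without replicate 1 of LH+BMP6 or of LH (adjusted p 0.0596 to 0.0729), and LH+BMP6 replicate 2, at 3.45, lay close to the 3.31 to 3.41 of LH cells. Without LH replicate 1, 2 of the 4 calls of this list remained.

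All 8 theca cell markers fell, and their median difference was -2.67, against -0.032 for all genes. The summed linear signal of the 8 was 1969 to 3244 in LH+BMP6 cells and 24508 to 36248 in LH cells. In bulk RNA, fewer theca cells and less of these transcripts per cell cannot be told apart. In LH cells the defining theca markers were present, and INSL3 was among the brightest probe sets, with only 1 to 3 of 24016 above it on each LH array. In LH+BMP6 cells 1142 to 7072 probe sets were brighter than INSL3.

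INSL3, the insulin-like peptide of theca cells, had 8.55, 9.09, 7.59 and 10.28 in LH+BMP6 cells. In LH cells it had 14.18, 14.04, 14.06 and 14.02. The LH arrays lay close together at the top of the range of the array, whereas the LH+BMP6 arrays varied widely among themselves. The difference was -5.20 ± 0.55 (limma adjusted p = 6.31e-06), a 36.6-fold fall. On leaving out arrays or replicate numbers it ran from -5.68 to -4.77. The LH signals lie at the upper end of the scale, so the fall may be understated, which was not tested. LHCGR, the LH receptor, had 5.85, 6.26, 6.06 and 6.54 in LH+BMP6 cells, against 8.53, 7.98, 8.12 and 7.81 in LH cells. It fell by 1.93 (SE 0.19, adjusted p = 2.55e-06), a 3.81-fold fall with no overlap. Among the alternatives the smallest difference of LHCGR was -1.38, and it was still called.

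Of 13 theca hormones and hormone receptors, these were the 2 that fell, and 1 rose, with a median of -0.05. The riser was the prostaglandin E2 receptor PTGER4 (0.95 ± 0.21, limma adjusted p = 0.00391; 0.0516 without replicate 3). The prolactin receptor PRLR (-0.32 ± 0.22, adjusted p = 0.341) and the oestrogen receptor ESR1 (-0.05 ± 0.11, adjusted p = 0.82) were not called. ESR1 signals of 3.42 to 3.90 lay below the lower quartile of the arrays, where the scale is compressed.

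Theca cells make androgen from cholesterol. Of 18 steroid synthesis genes, 10 fell and 2 rose, and the median was -0.54. CYP17A1, which makes the androgen precursors, had 4.46, 4.61, 4.78 and 4.32 in LH+BMP6 cells, against 10.85, 7.55, 8.30 and 8.05 in LH cells. The LH+BMP6 signals were near the lower quartile of their arrays (4.33 to 4.41), so the 17.7-fold fall may understate the change, and LH replicate 1 was well above the other LH arrays. The difference of -4.15 ± 0.52 (limma adjusted p = 3.37e-05) became -3.43 without LH replicate 1.

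STAR, which carries cholesterol into the mitochondrion, had 5.03, 6.10, 7.81 and 8.01 in LH+BMP6 cells, against 11.47, 9.49, 9.34 and 9.49 in LH cells. The groups did not overlap, but both were uneven: replicate 1 was the lowest LH+BMP6 array and the highest LH array. STAR fell by 3.21 (SE 0.68, limma adjusted p = 0.00264), and by 2.14 without replicate 1. CYP11A1, the side-chain cleavage enzyme that opens the pathway, had 9.15, 9.12, 9.03 and 9.27 in LH+BMP6 cells, against 12.39, 11.72, 11.53 and 11.36 in LH cells. It was the most even of the large falls in this pathway among LH+BMP6 arrays, at -2.61 ± 0.16 (adjusted p = 3.69e-08), or 6.1-fold. HSD3B1, which converts pregnenolone to progesterone, was lower by -2.73 ± 0.25 (adjusted p = 1.69e-06).

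Smaller falls extended to the partners and regulators of these enzymes. NR5A1 (SF-1), the nuclear receptor that drives steroidogenic genes, had 7.79, 8.11, 8.08 and 8.14 in LH+BMP6 cells, against 9.93, 9.69, 9.64 and 9.54 in LH cells. Its difference was -1.67 ± 0.10 (limma adjusted p = 2.64e-08), or -0.92 with its probe sets averaged. NR0B1 (DAX-1), a repressor of SF-1, fell by 1.28 (adjusted p = 0.000221), and its smallest difference among the alternatives was -0.74. SCARB1, the lipoprotein receptor that takes up cholesterol esters, fell by 1.33 (adjusted p = 1.35e-05), and the electron carrier FDX1 by 0.79 (adjusted p = 0.000193). CYB5A, a cofactor of CYP17A1, differed by -0.59 ± 0.13 (adjusted p = 0.00447; 0.0662 without replicate 3). The 21-hydroxylase CYP21A2 differed by -0.44 ± 0.15 (adjusted p = 0.0452) and lost its call without LH+BMP6 replicate 1, 3 or 4 or LH replicate 1, 2 or 3 (adjusted p 0.0843 to 0.13).

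The 2 members that rose were TSPO, an outer mitochondrial membrane protein long studied in cholesterol import, and GATA6, a transcription factor of steroidogenic cells. TSPO had 10.81, 11.11, 10.79 and 10.75 in LH+BMP6 cells, against 9.66, 9.97, 9.81 and 9.63 in LH cells, a difference of 1.10 ± 0.11 (limma adjusted p = 5.66e-06). GATA6 differed by 0.32 ± 0.09 (adjusted p = 0.0152) and its call was lost without LH+BMP6 replicate 1 or LH replicate 4 (adjusted p 0.0557 and 0.0558). GATA4 (0.18 ± 0.10, adjusted p = 0.245) and the aromatase gene CYP19A1 (-0.13 ± 0.11, adjusted p = 0.457) were not called.

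Genes that make and take up cholesterol fell too. Of 18 genes of cholesterol synthesis and uptake, 16 fell and 1 rose, with a median of -1.28. TM7SF2, a sterol reductase, had 5.97, 6.14, 5.88 and 5.82 in LH+BMP6 cells, against 10.15, 9.26, 7.71 and 7.73 in LH cells. The LH+BMP6 arrays were nearly level, while LH replicates 1 and 2 were clearly above LH replicates 3 and 4. TM7SF2 had the largest fall of the list (-2.76 ± 0.38, limma adjusted p = 7.28e-05). It was followed by DHCR7, which completes cholesterol synthesis (-1.73 ± 0.28, adjusted p = 0.000289), CYP51A1, the lanosterol demethylase (-1.67 ± 0.28, adjusted p = 0.000392), NSDHL, a sterol dehydrogenase (-1.62 ± 0.28, adjusted p = 0.000488), and SQLE, the squalene epoxidase (-1.53 ± 0.29, adjusted p = 0.00122).

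Earlier steps of the pathway were among them. HMGCS1, which makes HMG-CoA, had 11.78, 11.17, 10.81 and 11.04 in LH+BMP6 cells, against 13.26, 12.86, 11.97 and 12.07 in LH cells. Replicate 1 was the highest and replicate 3 the lowest array in both groups, which did not overlap. HMGCS1 differed by -1.34 ± 0.28 (limma adjusted p = 0.00266), FDPS, the farnesyl diphosphate synthase, by -1.49 ± 0.27 (adjusted p = 0.00073), and LSS, the lanosterol synthase, by -1.44 ± 0.20 (adjusted p = 8.59e-05). The lysosomal cholesterol exporter NPC1 was not called (-0.32 ± 0.13, adjusted p = 0.0853; 0.00828 without LH replicate 2). Its partner NPC2 was higher by 0.22 ± 0.06 (adjusted p = 0.0168), a call lost without replicate 1 of LH+BMP6 or LH (adjusted p 0.0553 and 0.0611).

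Of 33 fatty acid genes, 8 fell and 2 rose, with a median of -0.10. The stearoyl-CoA desaturase SCD fell by 1.58 (SE 0.30, limma adjusted p = 0.00108), fatty acid synthase FASN by 1.14 (SE 0.13, adjusted p = 1.37e-05) and the lipid droplet protein PLIN3 by 0.88 (SE 0.13, adjusted p = 0.000118). The 2 risers were lipoprotein lipase LPL by 1.09 ± 0.17 (adjusted p = 0.000271) and the fatty acid-binding protein FABP5 by 0.84 ± 0.13 (adjusted p = 0.000214). Without LH replicate 1, 5 genes of the list fell and 2 rose.

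Antioxidant genes were divided, with 11 of 28 lower, 5 higher and a median of -0.14. The secreted glutathione peroxidase GPX3 had 5.19, 5.02, 4.52 and 4.91 in LH+BMP6 cells, against 8.35, 6.89, 7.80 and 8.08 in LH cells. It fell by 2.87 (SE 0.46, limma adjusted p = 0.000328) with no overlap. The glutathione transferases MGST1 (-1.46 ± 0.27, adjusted p = 0.00104) and GSTM3 (-0.97 ± 0.15, adjusted p = 0.000265) and the mitochondrial peroxiredoxin PRDX3 (-0.99 ± 0.09, adjusted p = 1.23e-06; -0.33 with probe sets averaged) also fell. The haem-degrading enzyme HMOX1 (0.67 ± 0.09, adjusted p = 5.47e-05) and the metal-binding MT2A (0.76 ± 0.18, adjusted p = 0.00665; 0.0566 without replicate 3) rose. The other three, SOD2 (0.38), TXNRD1 (0.54) and PRDX2 (0.19), lost their calls on leaving out single arrays, with adjusted p values of 0.0506 to 0.076. For SOD2 these were LH+BMP6 replicates 2 and 3 and LH replicate 4, for TXNRD1 LH+BMP6 replicates 3 and 4 and LH replicate 1, and for PRDX2 LH+BMP6 replicates 2 to 4 and LH replicates 1 and 2. Without LH replicate 1 the list held 8 falls and 3 rises.

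Cyclic AMP is the messenger of LH. Of 10 early-response genes commonly induced through it, 6 were higher in LH+BMP6 cells, 1 was lower and 3 were not called, with a median of 0.70. The nuclear receptor NR4A1 had 7.36, 8.43, 7.89 and 7.78 in LH+BMP6 cells, against 6.54, 6.34, 6.23 and 6.00 in LH cells. Its difference was 1.58 ± 0.19 (limma adjusted p = 1.72e-05). Its relative NR4A2 (1.21 ± 0.18, adjusted p = 0.000146), FOS (0.95 ± 0.17, adjusted p = 0.000803), CREM (0.94 ± 0.19, adjusted p = 0.00174), EGR1 (0.72 ± 0.13, adjusted p = 0.000665) and CEBPB (0.67 ± 0.16, adjusted p = 0.00709), all transcription factors, rose as well. Probe sets disagreed for CREM, whose average was 0.18 (adjusted p = 0.147), and for NR4A2, whose average was 0.32. The other probe set of EGR1 was not called, and the lowest difference of EGR1 among the alternatives was 0.35. The phosphatase DUSP1 differed by -0.21 ± 0.07 (adjusted p = 0.0486) and lost its call without any single array other than LH+BMP6 replicate 3 and LH replicate 2 (adjusted p 0.0571 to 0.163).

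In the machinery of G proteins and cyclic AMP, 5 of 14 genes rose and 2 fell, with a median of 0.07. RGS16, which speeds the shut-off of G proteins, had the largest rise (1.33 ± 0.17, limma adjusted p = 3.37e-05). Among the alternatives RGS16 was as low as 0.78, still called. The remaining calls were ADCY7 (0.86), GNAI1 (0.68), PRKACB (0.27) and GNAI2 (0.24), which were higher, and RGS5 (-0.84) and PRKAR2B (-0.44), which were lower. Each of these 6 lost its call without 4 to 6 of the 8 single arrays, at adjusted p values of 0.0539 to 0.142. LH replicate 1 was among those arrays for all 6, LH+BMP6 replicate 3 likewise, and LH replicate 4 for all but ADCY7. Without LH replicate 1, 1 member rose and 0 fell (limma).

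**Figure D2:**
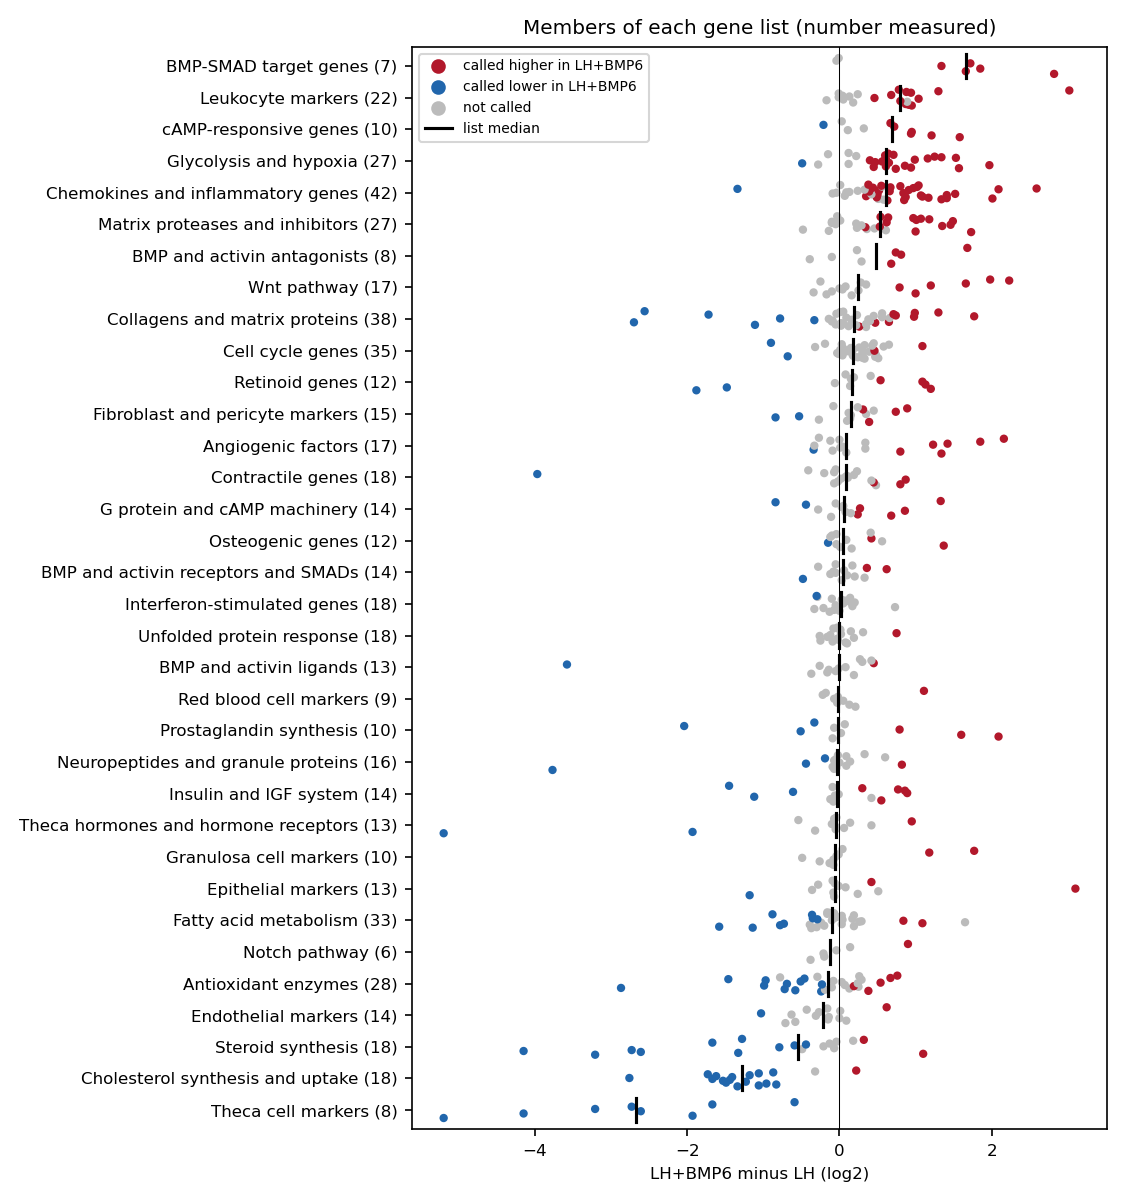
Difference LH+BMP6 minus LH (log2) of each measured member of the gene lists, ordered by list median. Red members were called higher, blue members lower and grey members were not called. The black bar is the list median, from 1.66 for BMP-SMAD targets to -2.67 for theca markers.

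Many genes of inflammation rose. Of 42 chemokine and inflammatory genes, 29 were higher and 1 was lower, with a median of 0.60. NOS2, the inducible nitric oxide synthase, had 10.33, 11.37, 10.66 and 9.64 in LH+BMP6 cells, against 8.46, 7.23, 8.05 and 7.93 in LH cells. Its difference was 2.59 ± 0.41 (limma adjusted p = 0.00026), or 1.45 with its probe sets averaged. PTGS2, the inducible enzyme of prostaglandin synthesis, had 9.37, 10.71, 9.83 and 9.19 in LH+BMP6 cells, against 8.60, 7.42, 7.48 and 7.22 in LH cells, and rose by 2.09 ± 0.41 (adjusted p = 0.00144; 1.49 with probe sets averaged). In both genes LH+BMP6 replicate 2 was the highest array and the groups did not overlap.

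The chemokine CCL20 rose by 2.01 ± 0.35 (limma adjusted p = 0.000532), the neutrophil attractant listed as GRO1 by 1.41 ± 0.20 (adjusted p = 0.000118), and the cytokine IL1B by 1.41 ± 0.21 (adjusted p = 0.000182). The neutrophil chemokine CXCL8 rose by 1.09 ± 0.18 (adjusted p = 0.000421). The cytokine IL6 (1.52 ± 0.39, adjusted p = 0.0104) had an adjusted p of 0.0736 without replicate 3, and the T cell chemokine CCL5 (1.34 ± 0.32, adjusted p = 0.00613) had 0.0539 without replicate 1. PTX3, a soluble pattern receptor, was lower (-1.34 ± 0.42, adjusted p = 0.0295), a call lost without any of the 4 LH+BMP6 arrays or without LH replicate 1 or 2 (adjusted p 0.0515 to 0.0965).

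Leukocyte markers moved with this group. Of 22, 13 were higher and none was lower, with a median of 0.79. Their summed linear signal was 14552 to 18582 in LH+BMP6 cells. In LH cells it was 5171 in replicate 1 and 9995 to 11321 in the other arrays. The MHC class II gene BOLA-DYA had 8.87, 8.35, 8.48 and 8.28 in LH+BMP6 cells, against 4.21, 4.82, 6.43 and 6.46 in LH cells, a difference of 3.02 ± 0.48 (limma adjusted p = 0.000268).

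Other class II genes rose less, BOLA-DQA1 by 1.30, BOLA-DRA by 0.94 and BOLA-DRB3 by 0.88. The pan-leukocyte gene PTPRC differed by 0.95 ± 0.26 (limma adjusted p = 0.0161; 0.0505 without LH+BMP6 replicate 2). The T cell genes CD3E (0.91), CD2 (0.89) and CD3D (0.87) were higher too. CD2 and CD3D lost their calls without LH+BMP6 replicate 2 or LH replicate 1 (adjusted p 0.06 to 0.0618), and CD3E without replicate 3 (0.0509). CD14, of monocytes, was higher by 1.04 ± 0.24 (adjusted p = 0.00462; 0.0597 without replicate 4). The B cell gene MS4A1 and the myeloid gene ITGAM lay below the lower quartile in both groups. Without LH replicate 1, 9 markers were called higher, with a median of 0.55, and the lowest count on leaving out other arrays or replicate numbers was 7. The part of leukocytes in the rise of the inflammatory genes was not tested.

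**Figure D3:**
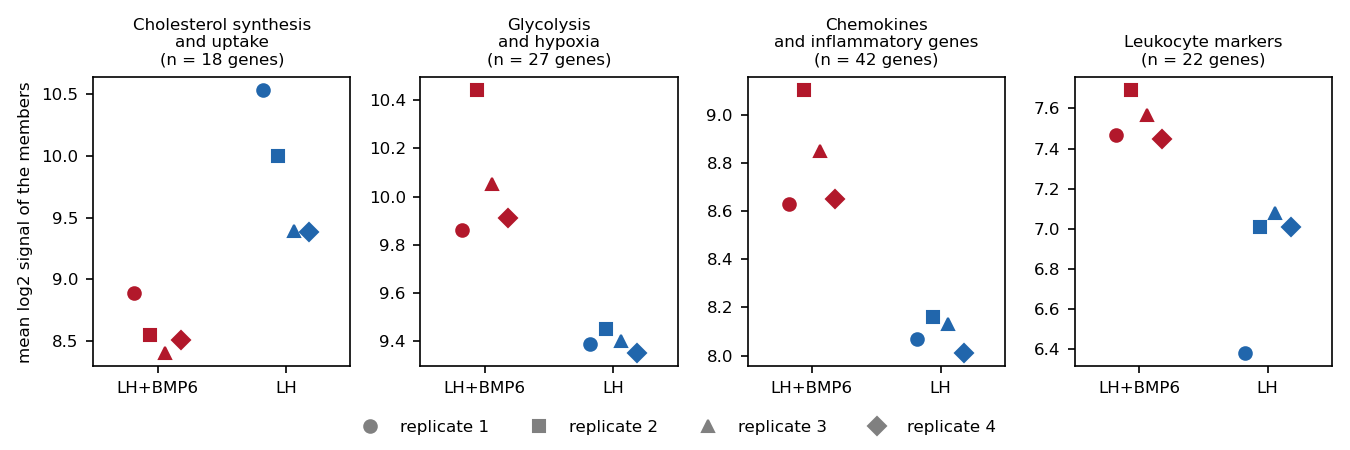
Mean log2 signal of the measured members of 4 gene lists on each array, LH+BMP6 on the left and LH on the right, with symbols for the replicate number. The vertical scales differ between panels. LH replicate 1 is highest for cholesterol genes (10.53) and lowest for leukocyte markers (6.38), and LH+BMP6 replicate 2 is highest for glycolysis (10.44) and inflammatory genes (9.1).

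Prostaglandin genes changed in both directions. Of 10, 3 rose and 3 fell, with a median of -0.03. Besides PTGS2, the prostaglandin E synthase PTGES (1.60 ± 0.31, limma adjusted p = 0.00124) and the prostaglandin D synthase PTGDS (0.79 ± 0.16, adjusted p = 0.00181) rose. HPGD, which inactivates prostaglandins, had 4.96, 4.58, 4.74 and 4.78 in LH+BMP6 cells, against 7.44, 6.22, 6.69 and 6.88 in LH cells, and fell by 2.04 (SE 0.28, adjusted p = 8.43e-05). The prostacyclin synthase PTGIS fell by 0.51 (SE 0.09, adjusted p = 0.00063). The thromboxane synthase TBXAS1 differed by -0.33 (adjusted p = 0.0282) and lost its call without LH+BMP6 replicate 1, 2 or 4 or LH replicate 3 or 4 (adjusted p 0.0546 to 0.0921).

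Glycolysis and hypoxia genes rose nearly throughout, with 21 of 27 higher, 1 lower and a median of 0.61. PFKFB3, which makes the activator of glycolytic flux, had 9.27, 9.86, 9.55 and 8.30 in LH+BMP6 cells, against 7.51, 7.38, 7.17 and 7.05 in LH cells. Its rise was 1.97 ± 0.34 (limma adjusted p = 0.000582), or 0.85 with probe sets averaged. The glucose transporter SLC2A3 (1.57 ± 0.32, adjusted p = 0.00207), the lactate exporter SLC16A3 (1.53 ± 0.36, adjusted p = 0.00586; 0.0566 without replicate 3; 0.75 with probe sets averaged), the mitophagy receptor BNIP3 (1.25 ± 0.26, adjusted p = 0.0022) and the angiogenic factor VEGFA (1.34 ± 0.30, adjusted p = 0.00388) rose as well.

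GAPDH, often used as a reference transcript, was higher by 0.47 ± 0.12 (limma adjusted p = 0.0089), and its adjusted p was 0.0563 without replicate 3 and 0.0584 without replicate 4. LDHA rose by 1.16 ± 0.23 (adjusted p = 0.00182), but 1 of its other probe sets was called lower and the average was 0.33. The aldolase ALDOC was lower by -0.49 ± 0.14 (adjusted p = 0.0154), a call lost without LH+BMP6 replicate 3 or LH replicate 1 (adjusted p 0.0528 and 0.0552). On leaving out arrays or replicate numbers the count of risers in this list ran from 14 to 21.

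Of 17 Wnt pathway genes, 6 rose and none fell, with a median of 0.25. RSPO3, a secreted enhancer of Wnt signals, had 8.42, 7.95, 8.35 and 7.73 in LH+BMP6 cells, against 5.62, 5.67, 6.02 and 6.22 in LH cells. The difference was 2.23 ± 0.17 (limma adjusted p = 2.47e-07). The Wnt receptors ROR2 (1.98 ± 0.19, adjusted p = 2.55e-06) and FZD1 (1.00 ± 0.17, adjusted p = 0.000522), the secreted inhibitors SFRP2 (1.66 ± 0.31, adjusted p = 0.00116) and DKK3 (1.20 ± 0.14, adjusted p = 1.24e-05), and the feedback target AXIN2 (0.79 ± 0.16, adjusted p = 0.00192) were the others.

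In the insulin and IGF system 5 of 14 genes rose and 3 fell, with a median of -0.04. Insulin receptor INSR fell by 1.12 (SE 0.22, limma adjusted p = 0.00175), or by 0.53 with probe sets averaged. The binding protein IGFBP4 fell by 0.61 (SE 0.14, adjusted p = 0.00383), and STC1, a secreted inhibitor of the protease that cuts IGFBP4, fell by 1.45 (SE 0.29, adjusted p = 0.00191). IGFBP7 was higher by 0.30 ± 0.06 (adjusted p = 0.0018) and IGFBP3 by 0.89 ± 0.22 (adjusted p = 0.0075; 0.0748 without replicate 1). IGFBP5 (0.86) and IGF2 (0.55) lost their calls without LH+BMP6 replicate 3 or 4 or LH replicate 1 or 2, and IGFBP6 (0.77) without replicate 1 of LH+BMP6 or LH (adjusted p 0.0573 to 0.112). IGF2 also lost its call with probe sets averaged (0.25, adjusted p = 0.182). Without LH replicate 1, 2 members rose and 3 fell. The receptor IGF1R was not called (-0.12 ± 0.11, adjusted p = 0.55).

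Transcripts of the extracellular matrix changed in both directions. Of 38 collagens and matrix proteins, 9 rose and 6 fell, with a median of 0.19. COL21A1, a fibril-associated collagen, had 8.78, 8.49, 8.62 and 8.85 in LH+BMP6 cells, against 11.41, 11.31, 11.45 and 11.35 in LH cells. Its difference of -2.70 ± 0.08, with the groups far apart and each of them even, had the smallest adjusted p of the genes named (limma, 4.11e-13). EMID1, a secreted protein with a collagen-like stretch, fell by 2.56 (SE 0.18, adjusted p = 8.87e-08), or 1.34 with probe sets averaged.

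The collagen VI chain COL6A1 and the basement membrane protein NID2 fell by 1.11 and 0.78 (limma adjusted p = 5.81e-05 and 1.06e-06). LAMB1 (-0.33) and the proteoglycan OGN (-1.72) lost their calls on leaving out single arrays (adjusted p 0.0529 to 0.134), any but LH+BMP6 replicate 4 for LAMB1 and any but LH+BMP6 replicate 1 and LH replicate 2 for OGN. Versican VCAN rose by 1.77 ± 0.25 (adjusted p = 9.64e-05) and thrombospondin THBS2 by 1.30 ± 0.21 (adjusted p = 0.000356). Thrombospondin THBS1 (0.99), for which 1 other probe set was called the opposite way, tenascin TNC (0.98) and fibronectin FN1 (0.65, adjusted p = 0.0589 without replicate 2) were also higher. Among the alternatives THBS1 was as low as 0.47 and TNC 0.48, with both still called.

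Matrix proteases and their inhibitors rose in 14 of 27 cases and fell in none, with a median of 0.53. The collagenase MMP1 had 6.77, 7.49, 6.70 and 6.24 in LH+BMP6 cells, against 5.40, 4.79, 4.95 and 5.15 in LH cells, and rose by 1.73 ± 0.23 (limma adjusted p = 5.66e-05). The aggrecanases ADAMTS4 (1.46 ± 0.26, adjusted p = 0.000753) and ADAMTS1 (1.35 ± 0.18, adjusted p = 6.94e-05), the plasminogen activator PLAT (1.49 ± 0.21, adjusted p = 8.65e-05) and its inhibitor SERPINE2 (1.18 ± 0.12, adjusted p = 5.7e-06) rose together with cathepsin CTSK (1.07), the urokinase receptor PLAUR (1.01) and gelatinase MMP2 (1.00).

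Of 17 angiogenic factors, 6 rose and 1 fell, with a median of 0.09. Besides VEGFA, the guidance factor SLIT3 (2.16 ± 0.34, limma adjusted p = 0.00027), endothelin EDN1 (1.85 ± 0.28, adjusted p = 0.00018), ANGPTL4 (1.42 ± 0.23, adjusted p = 0.000328), ANGPTL2 (1.23 ± 0.20, adjusted p = 0.000328) and VEGFC (0.80 ± 0.13, adjusted p = 0.00035) rose. FGF1 was lower by -0.34 ± 0.08 (adjusted p = 0.00845), and its call was lost without replicate 2 (adjusted p = 0.052) and with probe sets averaged (-0.11, adjusted p = 0.275).

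Of 12 retinoid genes, 4 rose and 2 fell, with a median of 0.17. ALDH1A1, which makes retinoic acid, had 11.28, 11.02, 10.75 and 10.77 in LH+BMP6 cells, against 13.34, 12.77, 12.57 and 12.68 in LH cells, and fell by 1.88 (SE 0.19, limma adjusted p = 3.98e-06). The retinal reductase DHRS3 fell by 1.48 (SE 0.26, adjusted p = 0.000658). The retinol dehydrogenase RDH10 (1.20 ± 0.23, adjusted p = 0.00129), the carriers RBP4 (1.13 ± 0.18, adjusted p = 0.000265) and CRABP2 (1.09 ± 0.23, adjusted p = 0.00226), and the retinol transporter STRA6 (0.54 ± 0.14, adjusted p = 0.00877) were higher. STRA6 lost its call without replicate 1 (adjusted p = 0.108) and with probe sets averaged (0.31, adjusted p = 0.0616).

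Among the 15 largest falls of the comparison were several genes outside these groups. TNNI3, a troponin of heart muscle, had 7.00, 6.49, 6.23 and 6.44 in LH+BMP6 cells, against 11.17, 9.57, 10.56 and 10.74 in LH cells, and fell by 3.97 (SE 0.28, limma adjusted p = 8.87e-08). The neuropeptide neuromedin B, NMB, had 7.84, 7.82, 7.69 and 8.19 in LH+BMP6 cells, against 12.34, 10.98, 11.46 and 11.82 in LH cells, and fell by 3.77 (SE 0.37, adjusted p = 3.29e-06). Neither gene had overlapping groups.

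RGN, a calcium-binding lactonase, differed by -3.42 ± 0.54 (limma adjusted p = 0.000286), by -1.65 with probe sets averaged, and by -2.69 without LH replicate 1, which had 10.40 where the other LH arrays had 6.70 to 8.90. NUDT11, a phosphohydrolase, fell by 3.56 (SE 0.50, adjusted p = 8.96e-05), or 2.52 with probe sets averaged. LOC767968 (-4.75 ± 0.43, adjusted p = 1.46e-06, with LH+BMP6 signals of 3.58 to 4.19, all below the lower quartile of their arrays), LOC508666 (-3.44 ± 0.30, adjusted p = 1.06e-06) and LOC783399 (-3.06 ± 0.33, adjusted p = 7.2e-06), which carry only locus names here, complete the set.

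Among the 15 largest rises, UPK1B, a tetraspanin of urothelium, was first. It had 8.50, 7.36, 7.81 and 7.78 in LH+BMP6 cells, against 4.66, 5.07, 4.53 and 4.80 in LH cells. Its difference was 3.10 ± 0.22 (limma adjusted p = 9.54e-08), an 8.57-fold rise. The muscle ubiquitin ligase FBXO32 (2.48 ± 0.28, adjusted p = 1.17e-05), the forkhead factor FOXO4 (2.37 ± 0.17, adjusted p = 1.09e-07), the immunoglobulin superfamily protein IGSF10 (2.35 ± 0.39, adjusted p = 0.000352), the annexin ANXA8L1 (2.25 ± 0.31, adjusted p = 8.65e-05), the oxidised LDL receptor OLR1 (2.04 ± 0.22, adjusted p = 6.98e-06) and the adhesion receptor SELP (2.01 ± 0.23, adjusted p = 1.15e-05) followed. LOC508098 (2.60 ± 0.39) and LOC404105 (2.25 ± 0.34) also belonged to this set.

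The remaining lists held the following calls, beside 27.2% of all genes called. Of 35 cell cycle genes, the thymidine kinase TK1 (1.09 ± 0.18, limma adjusted p = 0.000335) and the replication helicase subunit MCM6 (0.46 ± 0.12, adjusted p = 0.00996) rose. The cyclin CCND3 (-0.68 ± 0.13, adjusted p = 0.00145) and the stress gene GADD45B (-0.90 ± 0.19, adjusted p = 0.00292) fell. The median of the cell cycle list was 0.18, or 0.07 without LH replicate 1. Of 18 contractile genes, DES, TAGLN and CNN1 were higher by 0.87, 0.80 and 0.45 and TNNI3 fell (median 0.09). Of 16 neuropeptide and granule genes, SCG5 was higher (0.82) and NMB, CHGA (-0.44) and POMC (-0.19) were lower (median -0.03). The bone-associated genes ALPL (1.37 ± 0.23, adjusted p = 0.000457) and DMP1 (0.42) were higher and IBSP (-0.15) was lower among 12 (median 0.05). In the Notch pathway LFNG (0.90 ± 0.15, adjusted p = 0.000398) was the only call among 6 (median -0.12). The other probe set of LFNG was not called, and the lowest difference of LFNG among the alternatives was 0.41.

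The unfolded protein response had ATF3 (0.75) as its only call among 18 (median -0.01). The interferon-stimulated genes had PSMB9 (-0.30) among 18 (median 0.02). Several of these small calls rested on single arrays, and limma's adjusted p values without them reached 0.051 for TAGLN, 0.0611 for CNN1, 0.109 for SCG5, 0.153 for DMP1, 0.131 for IBSP, 0.132 for ATF3 and 0.0908 for PSMB9. TAGLN lost its call without LH replicate 1, which was also among the 4 to 7 arrays whose absence ended the calls of CNN1, SCG5, DMP1, IBSP and ATF3. PSMB9 lost its call without LH+BMP6 replicate 3 or 4 or LH replicate 2. POMC lost its call without replicate 3 or 4 of all groups (adjusted p up to 0.103), and CHGA with probe sets averaged (-0.14, adjusted p = 0.35).

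Markers of other cell types were compared in the same way. Of 10 granulosa markers, the protease inhibitor SERPINE2 and the cadherin CDH2 (1.77 ± 0.27, limma adjusted p = 0.000169) rose. The other 8 were not called and the list median was -0.06. The summed signal was 2183 to 2732 in LH+BMP6 cells and 1076 to 1553 in LH cells. Most of it came from SERPINE2 alone, whose mean log2 signal was 10.99 in LH+BMP6 cells and 9.81 in LH cells. By their group means the granulosa-defining FSHR and AMH lay under the lower quartile in both groups, with 3.27 to 3.55 for FSHR in LH+BMP6 cells and 3.26 to 3.63 in LH cells. FSHR (-0.08 ± 0.10, adjusted p = 0.645) and AMH (-0.26 ± 0.15, adjusted p = 0.245) were not called.

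Of 14 endothelial markers, ENG was higher and the tight junction gene CLDN5 was lower (-1.03 ± 0.27, limma adjusted p = 0.0115; 0.0798 without replicate 3). The endothelial sum was 827 to 1135 in LH+BMP6 cells and 1057 to 1578 in LH cells, with a list median of -0.21, and KDR and TIE1 were under the lower quartile in both groups. Of 15 fibroblast and pericyte markers, DCN, S100A4 (0.89), PDGFRA (0.39) and VIM (0.31) were higher and RGS5 and MCAM (-0.53) were lower (median 0.15). Their sum was 50175 to 53113 in LH+BMP6 cells and 34003 to 46354 in LH cells. VIM lost its call without LH+BMP6 replicate 3 or 4 or LH replicate 1 or 2 (adjusted p up to 0.0727). MCAM lost it without any array but LH+BMP6 replicate 4 and LH replicate 2 (adjusted p up to 0.127), and PDGFRA did with probe sets averaged (0.19, adjusted p = 0.0889).

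Of 13 epithelial markers, UPK1B and KRT5 (0.42) were higher and KRT18 (-1.18 ± 0.28, limma adjusted p = 0.00542; 0.0653 without replicate 3) was lower, with a median of -0.06. KRT5 lost its call without any single array other than LH+BMP6 replicate 1 (adjusted p up to 0.121). It also did so with probe sets averaged (0.23, adjusted p = 0.124). The epithelial sum was 2329 to 2850 in LH+BMP6 cells and 2255 to 3945 in LH cells. Of 9 red blood cell markers, the carbonic anhydrase CA2 was higher (1.11 ± 0.29, adjusted p = 0.0114; 0.096 without replicate 2), with a median of -0.02. The red blood cell sum was 719 to 1111 in LH+BMP6 cells and 405 to 611 in LH cells. Most of it came from CA2 alone, whose mean log2 signal was 9.45 in LH+BMP6 cells and 8.34 in LH cells. The other 8 markers were not called, and ALAS2 and SLC4A1 were under the lower quartile. The part of these other cells in the results was not tested.

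The response to BMP6 was then set beside that of cells without LH, which shares no array with the comparison above. BMP6 alone against control gave 4340 called probe sets (18.1%) and 2274 called genes (24.8%). Of these, 1779 genes were called in both comparisons, which is 71.4% of those called with LH and 78.2% of those called without it, and all 1779 changed in the same direction. Of the 713 genes called only with LH, 695 had the same sign without it. Across the 9155 genes the differences had a Pearson r of 0.922, given as a description because genes are not independent and all values come from 1 normalization.

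The test of the difference between the 2 responses, limma's interaction over 16 arrays, called 0 of 24016 probe sets (0.0%), and 773 (3.22%) had an unadjusted p under 0.05. The interaction is less precise, with a median SE of 0.144 against 0.102 for a difference, so 0 calls do not show equal responses. Cholesterol genes had 16 falls and a median of -1.28 with LH, and 12 falls and -0.76 without. Leukocyte markers had 13 rises (median 0.79) with LH and 3 (0.53) without, and glycolysis genes 21 (0.61) and 20 (0.62). These contrasts depend on LH replicate 1. With that array left out, the side with LH had 15 falls and a median of -1.04 for cholesterol genes. It had 9 rises (0.55) for leukocyte markers and 21 (0.58) for glycolysis genes. An unadjusted interaction p under 0.05 was found for 1 of 18 cholesterol genes, 0 of 22 leukocyte markers and 0 of 27 glycolysis genes. All 34 lists had a smallest adjusted interaction p of 1.0. TM7SF2 differed by -2.76 with LH and -1.43 without (interaction -1.33 ± 0.53), and SCARB1 by -1.33 with LH and -0.72 without (interaction -0.61 ± 0.21). INSL3 differed by -5.20 with LH and -5.70 without, INHA by -3.58 and -4.13, and ID1 by 2.82 and 2.71.

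Among the largest unadjusted interactions were those of SCG2, TF, RGN and STC1, none of which passed adjustment in limma. The granin SCG2 had 11.89, 11.59, 11.62 and 11.96 in LH+BMP6 cells, against 12.03, 11.71, 11.80 and 11.87 in LH cells, a difference of -0.09 ± 0.14 (adjusted p = 0.726). Without LH it was 0.74 higher with BMP6 (interaction -0.83 ± 0.20). Transferrin TF had 6.29, 6.39, 6.07 and 6.22 in LH+BMP6 cells, against 8.39, 7.74, 7.65 and 8.16 in LH cells, a difference of -1.74 ± 0.17 (adjusted p = 3.4e-06) with LH and -0.74 without it. RGN differed by -3.42 with LH and -0.81 without (interaction -2.61 ± 0.77), and STC1 by -1.45 with LH and -2.74 without (interaction 1.30 ± 0.41).

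**Figure D4:**
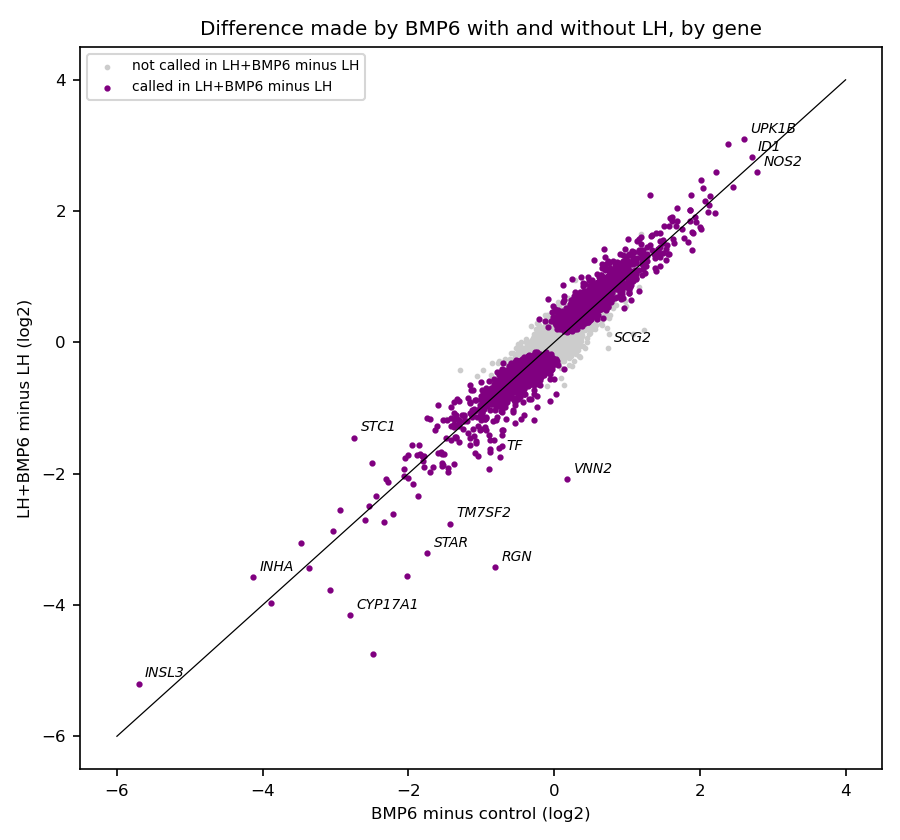
Each point is 1 of 9155 genes. The horizontal axis is BMP6 minus control and the vertical axis LH+BMP6 minus LH, both in log2, and the line marks equal differences. Purple genes were called with LH. Most genes lie along the line (Pearson r 0.922), and RGN, VNN2, TF and STC1 lie off it.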

How the data were processed

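Log2 signals of 16 bovine genome arrays were used as deposited. Per the submitters' processing notes, these log2 values came from RMA, run by the authors in Affymetrix Expression Console (version not given in the sources used here), and 0 per-sample columns were left unused. The table gives no detection calls, so the background level is unknown, and the number of arrays limits the precision. Of 24128 probe sets, 112 Affymetrix controls were left out and 24016 tested without a filter. The platform annotation gave 1 symbol to 13292 probe sets, several to 86 and none to 10638. The brightest probe set by mean represents each of 9155 genes.

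limma 3.58.1 in R 4.3.3 fitted a mean per group over 16 arrays, with an intensity trend in eBayes and Benjamini-Hochberg adjustment over 24016 probe sets. Errors of differences are moderated SEs. Quality measures had exact two-sided permutation tests. The fit was tested on simulated data.

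The text names the 15 largest called rises and 15 largest falls that had 1 direction in all 4 replicate numbers, at most 5 called members per list, and a fixed set of theca and BMP genes. By this rule 151 genes were named, and 54 were chosen after their values were seen, mostly to name all calls of a list. Members and lists were chosen with earlier results of these data known. Array summaries were drawn with Python 3.11.15. Alternatives covered the replicate block, the variance model, a filter on dim probe sets, the arrays fitted, normalization, the probe sets of a gene, and leaving out arrays.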

Additional observations from a re-analysis of the deposited data

Results flagged for a closer look

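In groups of 4 arrays, a value was listed when its gap to the nearest array exceeded Dixon's critical share of the group's range. Of 410 gene and group values, 24 (5.85%) met this, where chance gives about 5%, and 13 of the 24 were LH replicate 1. Over all probe sets the share flagged was 5.6% in LH cells and 5.48% in LH+BMP6 cells. There LH replicate 1 was the flagged array for 1.92% of probe sets, and each other array for 0.57% to 1.82%. The 13 of 24 thus holds for the genes named here and not for the array as a whole.

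In LH replicate 1 the high values were STAR at 11.47, GSTM3 at 12.67, PRDX3 at 11.13 and CELSR2 at 7.87. The low values were ADAMTS4 at 9.16, ANXA8L1 at 4.87, BOLA-DQA1 at 7.59, BOLA-DRA at 10.68, IGFBP3 at 9.82, MCM6 at 8.40, S100A4 at 8.59, SLIT3 at 6.27 and ITGA2 at 5.21. The same array had a hybridisation-control mean of 8.71 and a leading principal component of -43.80. In other LH arrays ATF3 reached 9.52 in replicate 2 and IGFBP4 11.13 in replicate 3.

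Among LH+BMP6 arrays, replicate 1 stood apart for LFNG at 7.87, SQLE at 9.98 and STRA6 at 6.95. Replicate 2 stood apart for SMAD2 at 8.57, TSPO at 11.11, CEBPB at 7.41 and CXCL8 at 10.77. DCN was 13.38 in replicate 4 and TNNT1 3.73 in replicate 3.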

How the results depend on the processing

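The 4879 called probe sets became 2963 to 4867 on leaving out 1 array or 1 replicate number (2963 without replicate 3), the 2399 higher ones 1465 to 2396, the 2480 lower ones 1498 to 2471, and the 4340 of BMP6 minus control 2703 to 4049. Leaving out the arrays with weak hybridisation controls (LH replicate 1, control replicates 1 and 3) made them 3474 and, for BMP6 minus control, 2660. With the replicate block they became 5706 and 5202, and as a random effect 5565 and 4970, while among the genes named DUSP1, LAMB1 and PRKACB were no longer called with the block (adjusted p = 0.0507, 0.0544 and 0.0564), and ACVR1 was called with the random effect (0.0477) and with dim probe sets left out (0.0387). Same-numbered LH+BMP6 and LH arrays correlated at 0.09 to 0.27 (mean 0.2) in their deviations from group means, and unlike numbers averaged -0.07. The sample titles give a replicate number and no batch, and replicate 3 missed the limit of 0.1 that was used. The numbers were therefore not taken as pairs in the main fit, which may lose precision if they mark batches. Every LH+BMP6 array correlated best with its own number, but LH replicate 3 did so with LH+BMP6 replicate 4 (0.194). Fitting only the arrays compared gave 4019 (4938 with the block, chosen after seeing the data), and the interaction, which needs all 4 groups, could not be tested there. The interaction stayed at 0 in every alternative that tested it. Of 193 called genes named, 132 were called in every alternative. Reversed values belonged to the uncalled BMPR1A (-0.07, -0.02, -0.08 and -0.08 among leave-outs of -0.08 to 0.20) and ESR1 (0.02, 0.01 and 0.02 among -0.15 to 0.02) and to IBSP (0.29 with probe sets averaged). Signals near the array floor limit CYP17A1, LOC767968, IGSF10, SOSTDC1, TNNT1 and FSHR.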

Other observations

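Genes outside the lists fell too. The cadherin-like receptor CELSR2 was lower by -2.49 ± 0.23 (limma adjusted p = 1.65e-06), or -1.44 with probe sets averaged. The endoplasmic reticulum protein ERP27 was lower by -2.34 ± 0.15 (adjusted p = 4.98e-08) and the transcriptional coregulator CITED1 by -1.61 ± 0.17 (adjusted p = 8.16e-06). The slow muscle troponin TNNT1 had 3.83, 3.82, 3.73 and 3.82 in LH+BMP6 cells, against 7.36, 5.54, 5.91 and 5.75 in LH cells. The pantetheinase VNN2 had 4.12, 5.19, 4.57 and 4.83 in LH+BMP6 cells, against 7.71, 8.28, 5.38 and 5.67 in LH cells, a difference of -2.08 ± 0.49 (adjusted p = 0.00523; 0.0825 without replicate 1), while BMP6 alone differed from control by 0.18.

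Rises outside the lists were seen for the growth factor receptor FGFR2 (1.91 ± 0.22, limma adjusted p = 1.64e-05; 0.5 with probe sets averaged), the collagen-binding integrin ITGA2 (1.89 ± 0.26, adjusted p = 8.61e-05; 1.04 with probe sets averaged), the transcription factor GATA5 (1.83 ± 0.32, adjusted p = 0.000615) and the glycoprotein GPNMB (1.76 ± 0.33, adjusted p = 0.000999). Each of these genes was chosen after its values were seen.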
